A study of Mus musculus with 12 samples.

Results

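Liver RNA of 6 mice on a high-fat diet, killed at ZT12, is described here, 3 given Policaptil Gel Retard (named Libramed in the labels, a blend of plant fibers that forms a gel in the gut) and 3 given vehicle. These 6 mice were chosen by their labelled time and treatment and are 6 of the 12 mice of the series. The other 6 were killed at ZT0 and serve below as independent mice for the same treatment. All 12 were male C57BL/6J-background mice, 8 weeks of age per the design text, on a high-fat diet. The product was given daily by gavage shortly before lights off for 2 weeks, and controls received drinking water. ZT counts hours from lights on and ZT12 is lights off, the start of the feeding phase of mice. The labels call the 3 libraries of a group biological replicates, taken here as 1 mouse each. Mice on normal diet are not analysed here, so the values compare treated with untreated mice on the same diet only.

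The liver changes its programme with feeding. Insulin and glucose drive fatty acid synthesis through Srebf1 (SREBP-1c) and Mlxipl (ChREBP), while the fatty acid receptor PPARα drives fat oxidation and ketone production in fasting. Amino acid breakdown, with its nitrogen passed to the urea cycle, rises under glucagon and glucocorticoids, and the acute-phase proteins of the plasma are made by hepatocytes under cytokines such as interleukin-6.

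Values are FPKM (fragments scaled to transcript length and library size), and changes are differences of group means of log2(FPKM + 1), treated minus vehicle. Of 9806 genes tested, 661 had a limma p under 0.05 without adjustment, the threshold that the study used with another test, Cyber-T. These were 6.74% of the genes, 301 higher (3.07%) and 360 lower (3.67%). After Benjamini-Hochberg adjustment in limma the lowest p was 0.583 and 0 genes passed. Below, "rose", "fell" and "called" mean the unadjusted threshold in limma, at which the adjusted p ran from 0.583 to 0.729, and SE is the standard error of a log2 change. With 3 mice against 3 an exact permutation test of a single gene cannot go below p = 0.1. The changes were small on this scale, with 90.0% of the 661 under 1.5-fold in FPKM + 1. The added 1 shrinks the changes of low genes, and 234 of the 661 averaged under 5 FPKM. The 3 treated mice lay wholly above or below the 3 vehicle mice for 1289 genes (13.1%), 577 higher (5.88%) and 712 lower (7.26%). The log2 change was above 0 in 45.6% of the genes tested, and its median over all of them was -0.01.

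The 6 libraries summed to 692646 to 759355 FPKM, and their relative depth, read from the low values, was 0.722 to 1.26 times that of a ZT0 library. Correlations between mice of the same group (0.977 to 0.985) covered nearly the same range as between groups (0.977 to 0.987). Hepatocyte markers summed to 51505 to 67611 FPKM per library, although Alb (albumin) was listed at 0 in all of them. Treated mouse 3 stood apart in muscle markers. Its 21 skeletal muscle markers summed to 93.5 FPKM against 7.48 to 10.3 FPKM in the other 5, and 20 of the 21 were highest there, with Acta1 at 16.4, Ckm at 10.4 and Tnnt3 at 10.3 FPKM and all 3 at 0 in the others. Without this mouse 347 genes rose and 542 fell, and 429 of the 661 calls remained. For that reason the counts of the main gene groups below are given with and without it. The part of the muscle RNA in any result was not tested. Treated mouse 2, the library of the lowest relative depth (0.722), differed in neutrophil markers. They summed to 19.9 FPKM there, against 0.823 to 3.62 FPKM in the vehicle mice and 2.54 and 3.03 FPKM in treated mice 1 and 3. The part of neutrophil RNA in any result was not tested either.

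The largest changes were ranked only among calls whose groups did not overlap and which held without treated mouse 3. MicroRNA and small nucleolar RNA genes and symbols naming several genes were left out. Lack of overlap was therefore required of every ranked gene and is no separate evidence for it. The leading rises so ranked included secreted liver peptides, a stress-response gene, noncoding RNAs and lipogenic genes. Ass1, an enzyme of nitrogen handling, ranked 12. Hamp2, a hepcidin gene on chromosome 7 (mm10, chr7:30922372-30924681, protein coding), was at 37.4, 88.8 and 66.6 FPKM in the vehicle mice and 261, 155 and 161 FPKM in the treated mice. No treated mouse overlapped a vehicle mouse, with a log2 change of 1.61 (SE 0.34) and an adjusted p of 0.700 in limma. Orm3, an orosomucoid gene of the acute phase on chromosome 4 (chr4:63356162-63359511), was at 5.05, 2.26 and 2.88 FPKM in the vehicle mice and 12.2, 10.1 and 10.3 FPKM in the treated mice, the treated mean being 3.2 times the vehicle mean. The groups of Orm3 did not overlap, with a log2 change of 1.48 (SE 0.22). Both genes have close copies (Hamp, Orm1 and Orm2) with which reads can be shared, so their identity is uncertain. Ddit4, which restrains mTORC1 and responds to glucocorticoids and stress, was at 4.93, 3.31 and 7.49 FPKM in the vehicle mice and 20.5, 9.49 and 13.9 FPKM in the treated mice, with a log2 change of 1.32 (SE 0.32). The lowest treated mouse lay above the highest vehicle mouse.

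Ass1, which joins citrulline and aspartate in the urea cycle, was at 136, 185 and 136 FPKM in the vehicle mice and 295, 234 and 248 FPKM in the treated mice, again without overlap, with a log2 change of 0.77 (SE 0.15). Others among the 12 highest changes ranked by this rule were Rpph1 (1.27), Malat1 (1.22), 2900009J06Rik (0.99), Srebf1 (0.94), Thrsp (0.94), H2-Bl (0.92) and BC029214 (0.86), all log2 changes. Malat1, a nuclear RNA, was at 37.1, 32.4 and 37.7 FPKM in the vehicle mice and 52.2, 164 and 70.1 FPKM in the treated mice. Its size rested on treated mouse 2, the library of the lowest relative depth (0.722), without which the log2 change was 0.75. Rpph1, the RNA of RNase P, was at 0, 0 and 0.945 FPKM in the vehicle mice and 1.22, 4.8 and 1.1 FPKM in the treated mice, with the same mouse highest and a log2 change of 0.79 without it. Its call was lost without vehicle mouse 1 (1.11) or vehicle mouse 2 (1.11).

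The leading falls, ranked by the same rule and so also without overlap by selection, were in PPARα targets, adipsin and enzymes of drug and lipid metabolism. Cyp4a14, a fatty acid omega-hydroxylase on chromosome 4 (chr4:115486200-115496142), was at 36.1, 35.1 and 151 FPKM in the vehicle mice and 18.8, 10.7 and 12.9 FPKM in the treated mice. All treated mice lay below all vehicle mice, with a log2 change of -1.99 (SE 0.55). Vehicle mouse 3 set much of its size, and without it the log2 change was -1.31. Cpne8, a copine that binds membranes under calcium, was at 2.53, 3.15 and 3.87 FPKM in the vehicle mice and 0.704, 1.28 and 0.938 FPKM in the treated mice, with no overlap and a log2 change of -1.08 (SE 0.16). Vnn1, a pantetheinase, was at 36.9, 36.3 and 53.6 FPKM in the vehicle mice and 17, 24.7 and 22.1 FPKM in the treated mice, with a log2 change of -0.95 (SE 0.19). Its treated mice were all lower. Cyp2a22 (-1.02), Cyp4a10 (-0.94), 9130409I23Rik (-0.83), Nrep (-0.79), Lrg1 (-0.71), Plcxd2 (-0.69), Mogat1 (-0.67) and 2210417A02Rik (-0.62) made up the remainder of the 12 lowest log2 changes so ranked, together with Cfd. Nrep lost its call without vehicle mouse 2 (-0.74) or treated mouse 1 (-0.76), and Plcxd2 without treated mouse 1 (-0.53).

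**Figure D1:**
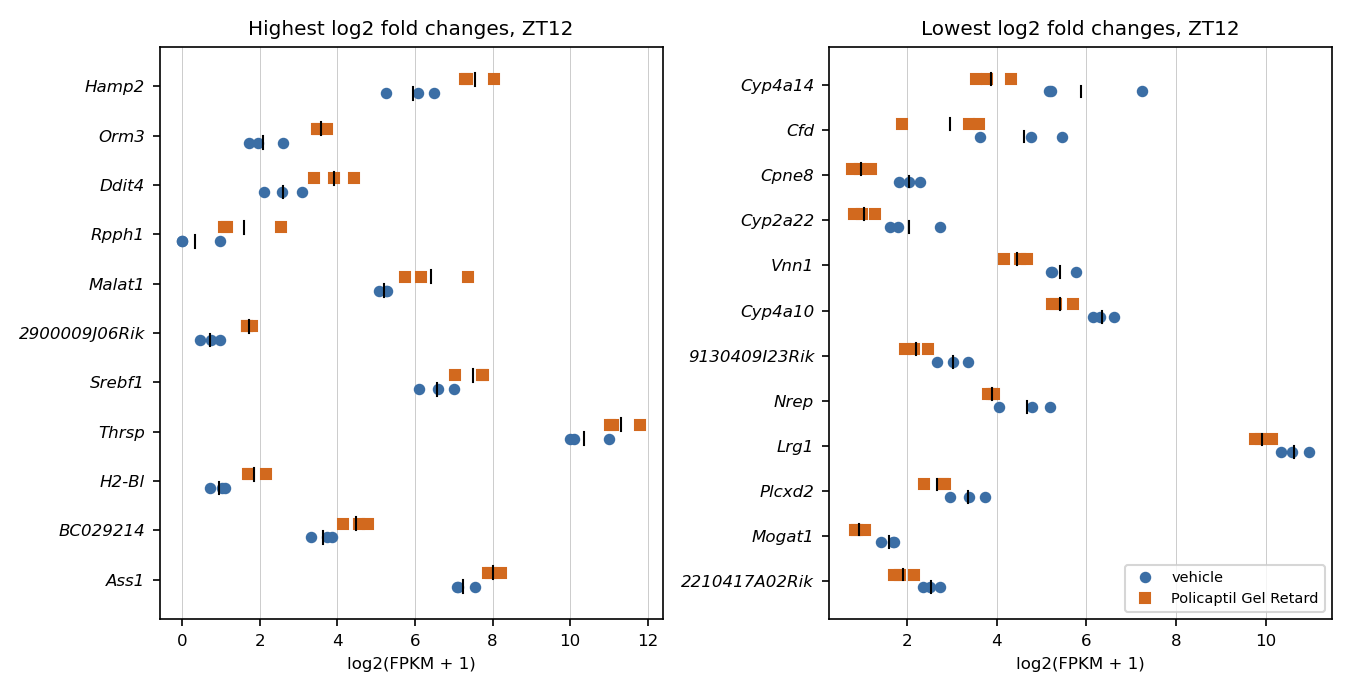
Level of 11 of the 12 genes ranked highest and of the 12 ranked lowest by log2 change at ZT12. Values are log2(FPKM + 1) on the horizontal axis, with 1 circle per vehicle mouse, 1 square per treated mouse and a black bar at each group mean. In all 23 genes shown the squares and circles do not overlap, which the ranking required, and Cyp4a14 and Malat1 each have 1 mouse far from its group.

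Cfd, adipsin, a complement factor made mainly by fat cells, was at 11.4, 42.8 and 26.1 FPKM in the vehicle mice and 2.74, 9.47 and 11.2 FPKM in the treated mice. The vehicle values spread widely, and the gap between the groups ran only from 11.2 to 11.4 FPKM, with a log2 change of -1.65 (SE 0.58). The call was lost without vehicle mouse 2 (-1.23), vehicle mouse 3 (-1.58) or treated mouse 1 (-1.12), as log2 changes. The 6 fat markers summed to 21.2 to 52.7 FPKM in vehicle and 10.4 to 22.0 FPKM in treated mice, of which Retn and Lep were at 0 in all 6 and Adipoq and Plin1 were at most 0.0492 FPKM. Fabp4, another fat cell marker, was at 9.75, 9.9 and 6.97 FPKM in the vehicle mice and 7.66, 10.5 and 10.7 FPKM in the treated mice, so the groups overlapped. The part of fat tissue in the fall of Cfd was not tested.

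Genes of fatty acid synthesis were mostly higher in the treated mice, with a wide spread among mice. Of 16 tested, 4 rose (Srebf1, Thrsp, Mlxipl and Fasn) and 0 fell, against 3.07% of all genes higher, and 15 had a log2 change above 0. The median over the list was 0.64, against -0.01 over all genes. Srebf1, the master regulator of the pathway, was at 67.5, 127 and 95.8 FPKM in the vehicle mice and 215, 213 and 129.6 FPKM in the treated mice. Its groups did not overlap, though treated mouse 3 and vehicle mouse 2 nearly met, with a log2 change of 0.94 (SE 0.28). Thrsp (spot 14), a lipogenic cofactor, was at 1021, 2064 and 1102 FPKM in the vehicle mice and 3565, 2216 and 2086 FPKM in the treated mice, also without overlap, with a log2 change of 0.94 (SE 0.31). Fasn, fatty acid synthase, was at 25, 90.1 and 50.6 FPKM in the vehicle mice and 267, 142 and 70.7 FPKM in the treated mice. Treated mouse 3 lay below vehicle mouse 2, so the groups overlapped, with a log2 change of 1.5 (SE 0.58).

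Several other enzymes were highest in treated mouse 1. Scd1, the stearoyl-CoA desaturase, was at 47.9, 455 and 218 FPKM in the vehicle mice and 1233, 561 and 105 FPKM in the treated mice, with a log2 change of 1.31 (SE 1.07, not called). Acly, ATP-citrate lyase, was at 27, 77.9 and 40.3 FPKM in the vehicle mice and 156, 77.6 and 53.1 FPKM in the treated mice, with a log2 change of 0.96 (SE 0.48, not called). Acaca, acetyl-CoA carboxylase, was at 3.13, 5.95 and 3.75 FPKM in the vehicle mice and 11.7, 6.03 and 3.33 FPKM in the treated mice, with a log2 change of 0.50 (SE 0.39, not called). In each of these 3 genes treated mouse 1 was highest and vehicle mouse 1 lowest. Without treated mouse 3 the list had 8 rises and a median of 0.98, and without treated mouse 1 it had 1 rise and a median of 0.17. It also had 1 rise without vehicle mouse 1 or vehicle mouse 3, 2 without treated mouse 2 and 6 without vehicle mouse 2, with 0 falls each time. Fasn lost its call without vehicle mouse 1 (1.03), vehicle mouse 3 (1.53), treated mouse 1 (1.03) or treated mouse 2 (1.48). Thrsp lost it without vehicle mouse 1 (0.75), vehicle mouse 3 (0.81) or treated mouse 1 (0.70), and Mlxipl (0.35) without any of vehicle mouse 1 (0.30), vehicle mouse 3 (0.36), treated mouse 1 (0.24) or treated mouse 2 (0.34), all as log2 changes. The call of Srebf1 held whichever mouse was left out. At ZT0, where 3.42% of all genes rose and 5.81% fell, the list had 0 calls and a median of 0.20.

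Promoters of Fasn and Thrsp are shown because both genes rose and are classic SREBP-1c targets, whose promoters commonly carry CCAAT boxes, the binding letters of NF-Y. Each is the 250 bases before the RefSeq start (GRCm38.p6, the build of the files), printed 5′ to 3′ on the strand of the gene, with CCAAT and its reverse ATTGG in capitals. Fasn lies at chr11:120824548-120824797 on the minus strand and Thrsp at chr7:97417551-97417800 on the minus strand.
Fasn: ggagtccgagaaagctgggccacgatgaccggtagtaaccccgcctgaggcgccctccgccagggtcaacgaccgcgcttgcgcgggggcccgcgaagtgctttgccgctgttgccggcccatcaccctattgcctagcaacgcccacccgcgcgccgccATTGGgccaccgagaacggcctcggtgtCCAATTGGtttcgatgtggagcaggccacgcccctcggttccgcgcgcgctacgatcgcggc
Thrsp: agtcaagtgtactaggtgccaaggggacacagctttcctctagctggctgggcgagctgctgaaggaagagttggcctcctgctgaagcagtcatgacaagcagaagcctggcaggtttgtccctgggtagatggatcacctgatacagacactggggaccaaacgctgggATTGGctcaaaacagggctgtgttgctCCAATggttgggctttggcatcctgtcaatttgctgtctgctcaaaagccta
In Fasn the letters start at -90, -62 and -59 from the start, the last 2 overlapping, and in Thrsp at -79 and -52. At least 1 such match is present in 33.8% of 32851 RefSeq promoter windows of 250 bases, so it is a description of these windows only.

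Genes of amino acid breakdown and the urea cycle rose in 10 of 21 tested and fell in 0. Of the 21, 20 had a log2 change above 0, and 11 had groups that did not overlap, against 3.07% of all genes rising and 5.88% of all genes wholly higher. The median log2 change was 0.26. Among the urea cycle enzymes, Cps1, which makes carbamoyl phosphate, was at 378, 448 and 386 FPKM in the vehicle mice and 551, 484 and 519 FPKM in the treated mice, with a log2 change of 0.36 (SE 0.09). All treated mice were above all vehicle mice. Asl, argininosuccinate lyase, was at 569, 755 and 629 FPKM in the vehicle mice and 951, 846 and 843 FPKM in the treated mice, with a log2 change of 0.44 (SE 0.12). Arg1, arginase, was at 1002, 1077 and 967 FPKM in the vehicle mice and 1269.8, 1206 and 1181 FPKM in the treated mice, with a log2 change of 0.26 (SE 0.08). With Ass1, these 4 enzymes had no overlap between groups, while Otc, the remaining enzyme of the cycle, was at 239, 194 and 171 FPKM in the vehicle mice and 225, 190.2 and 260.1 FPKM in the treated mice with overlapping groups (log2 change 0.16, SE 0.16, not called).

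Among the enzymes of amino acid breakdown, Sds, serine dehydratase, was at 191, 307 and 216 FPKM in the vehicle mice and 420.2, 363 and 357 FPKM in the treated mice, without overlap and with a log2 change of 0.70 (SE 0.18). Tat, tyrosine aminotransferase, a classic glucocorticoid target, was at 365, 569 and 829 FPKM in the vehicle mice and 1013, 891 and 1397 FPKM in the treated mice, again without overlap, with a log2 change of 0.96 (SE 0.30). Agxt (0.33), Gpt (0.28), Prodh (0.35) and Hpd (0.26), which act on glyoxylate and alanine, proline and tyrosine, also rose on the log2 scale. The list had 6 rises without treated mouse 3, 7 without vehicle mouse 1 and 8 to 12 without each of the others, with 0 falls in each. Lost calls were Tat without treated mouse 3 (0.77), Gpt without vehicle mouse 1 (0.21), treated mouse 2 (0.25) or treated mouse 3 (0.24), Prodh without vehicle mouse 1 (0.24), vehicle mouse 3 (0.35), treated mouse 1 (0.31) or treated mouse 3 (0.35), and Hpd without any of vehicle mouse 1 (0.16), vehicle mouse 2 (0.30), treated mouse 1 (0.26), treated mouse 2 (0.30) or treated mouse 3 (0.22). Cps1, Ass1, Asl, Arg1, Sds and Agxt kept theirs each time. At ZT0 the same list had 0 rises, 1 fall (Tat) and a median of -0.08.

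**Figure D2:**
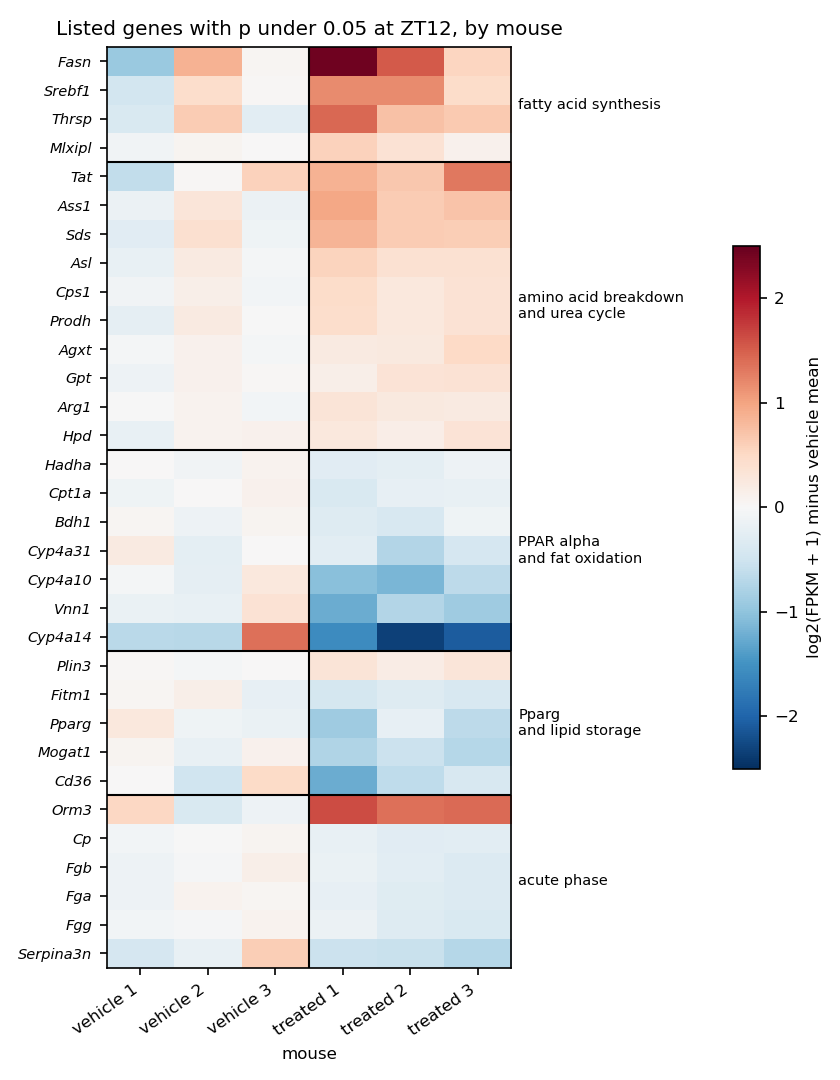
Deviation of each mouse from the vehicle mean in log2(FPKM + 1), shown as color from blue (lower) to red (higher) with the scale ending at 2.5 on either side, for genes of 5 gene lists with a limma p under 0.05 (rows), in 3 vehicle and 3 treated mice (columns). The rows of amino acid breakdown, apart from Tat, are even across the treated mice, while Fasn is darkest in treated mouse 1 and palest in treated mouse 3.

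Several targets of PPARα fell. Of 27 genes of this receptor and of fat oxidation, 8 fell (among them Cyp4a10, Vnn1, Cyp4a14, Hadha, Cpt1a, Cyp4a31 and Bdh1) and 0 rose, against 3.67% of all genes falling, and the median log2 change was -0.17. Cyp4a10, a neighbour of Cyp4a14 on chromosome 4 (chr4:115518264-115533649), was at 78.4, 69.6 and 97.3 FPKM in the vehicle mice and 38.9, 36.4 and 50.9 FPKM in the treated mice, with a log2 change of -0.94 (SE 0.16). Treated mice were lower throughout. Cyp4a31, from the same cluster (chr4:115563649-115579015), was low in all mice at 2.06, 1.23 and 1.66 FPKM in the vehicle mice and 1.19, 0.585 and 0.963 FPKM in the treated mice, with a log2 change of -0.47 (SE 0.16). The Cyp4a copies resemble each other and may share reads, so their values are not separate evidence. Cpt1a, which admits fatty acids to mitochondria, was at 119, 129.7 and 139 FPKM in the vehicle mice and 99.3, 111 and 114 FPKM in the treated mice, with a log2 change of -0.26 (SE 0.09). Hadha, a subunit of the trifunctional protein of beta-oxidation, was at 108, 102 and 114 FPKM in the vehicle mice and 88.3, 90.8 and 98.2 FPKM in the treated mice, with a log2 change of -0.22 (SE 0.08). In both the groups were apart by a small margin. Ppara itself was at 40.0, 44.7 and 50.2 FPKM in the vehicle mice and 45.7, 37.8 and 42.4 FPKM in the treated mice, with overlap and a log2 change of -0.10 (SE 0.11, not called). The list had 12 falls and 1 rise without treated mouse 3, 3 falls without vehicle mouse 3, 4 without treated mouse 2 and 5 without treated mouse 1. Cyp4a10, Vnn1 and Cyp4a14 kept their calls each time. Lost calls were Cpt1a without vehicle mouse 2 (-0.25), vehicle mouse 3 (-0.20) or treated mouse 1 (-0.20), Hadha without vehicle mouse 3 (-0.18), treated mouse 1 (-0.19) or treated mouse 2 (-0.21), and Cyp4a31 without vehicle mouse 1 (-0.36), vehicle mouse 3 (-0.46) or treated mouse 2 (-0.34). At ZT0 the list had 2 rises and 1 fall.

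Lipid storage genes of the PPARγ programme moved down in part. Of 17 tested, 4 fell (Mogat1, Fitm1, Pparg and Cd36) and 1 rose (Plin3), against 3.67% of all genes falling and 3.07% rising, with a median log2 change of -0.14 (-0.01 over all genes). Mogat1, a monoacylglycerol acyltransferase, was at 2.2, 1.68 and 2.29 FPKM in the vehicle mice and 0.806, 1.11 and 0.856 FPKM in the treated mice, without overlap and with a log2 change of -0.67 (SE 0.11). Fitm1, a protein that partitions fat into droplets, was at 128, 137 and 106 FPKM in the vehicle mice and 90.5, 98.2 and 92.9 FPKM in the treated mice, with a log2 change of -0.39 (SE 0.10). The fall of Fitm1 left no overlap. Pparg, the receptor that gives the list its name, was at 10.5, 7.8 and 7.52 FPKM in the vehicle mice and 4.13, 7.24 and 5.01 FPKM in the treated mice, with a log2 change of -0.59 (SE 0.20). Its groups were separated only by 7.24 against 7.52 FPKM. Cd36, a fatty acid uptake protein, was at 10.9, 7.4 and 15.5 FPKM in the vehicle mice and 3.97, 6.63 and 7.96 FPKM in the treated mice with overlap and a log2 change of -0.76 (SE 0.30), and Cidec, a lipid droplet protein, was at 3.65, 3.41 and 4.69 FPKM in the vehicle mice and 1.63, 3.29 and 2.94 FPKM in the treated mice without overlap and with a log2 change of -0.46 (SE 0.20, not called). Plin3, a droplet coat protein, was at 14.1, 13.4 and 14 FPKM in the vehicle mice and 17.5, 15.9 and 17.3 FPKM in the treated mice, all treated mice being higher, with a log2 change of 0.27 (SE 0.07). Pparg lost its call without vehicle mouse 1 (-0.45), treated mouse 1 (-0.44) or treated mouse 3 (-0.55), and Cd36 without vehicle mouse 1 (-0.75), vehicle mouse 3 (-0.52), treated mouse 1 (-0.52) or treated mouse 2 (-0.82). The list had 2 falls without vehicle mouse 1 and 3 to 4 without each of the others, and 2 rises without vehicle mouse 3. At ZT0 it had 0 rises, 1 fall and a median of -0.17.

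In glucose handling only single genes were called. In the insulin and glucose list 1 gene rose and Irs2 (-0.36), an insulin receptor substrate, was the only fall among 21 genes tested in these 6 mice. The median log2 change was 0.08. Called members were 9.52% of this list, close to the 6.74% of all genes tested (3.07% higher and 3.67% lower). Irs2 was at 1.4, 1.06 and 1.32 FPKM in the vehicle mice and 0.803, 0.446 and 1.08 FPKM in the treated mice, with overlap, and kept its call only when vehicle mouse 2 or treated mouse 3 was left out. Without treated mouse 2 its log2 change was -0.22. Pck1 was at 928, 1017 and 1359 FPKM in the vehicle mice and 1269, 1090.4 and 2044 FPKM in the treated mice and G6pc at 171, 228 and 288 FPKM in the vehicle mice and 305, 237 and 313 FPKM in the treated mice, the gatekeeping enzymes of gluconeogenesis, and both overlapped between groups, with a log2 change of 0.38 (SE 0.25, not called) and a log2 change of 0.34 (SE 0.20, not called). In the glycogen list of 13, Ppp1r3b (0.47) and Ppp1r3c (0.72), which bring phosphatase 1 to glycogen, rose and Phkb (-0.23), a phosphorylase kinase subunit, fell. These were 23.1% of that small list. Ppp1r3b was at 83, 104 and 121 FPKM in the vehicle mice and 164, 133 and 129 FPKM in the treated mice, without overlap, and lost its call without treated mouse 1 (0.36). Ppp1r3c was at 12.6, 10.2 and 16.3 FPKM in the vehicle mice and 19, 15.6 and 34.5 FPKM in the treated mice, and lost its call without vehicle mouse 1 (0.70), vehicle mouse 2 (0.57), treated mouse 1 (0.81) or treated mouse 3 (0.40). Phkb kept its call only without vehicle mouse 3 or treated mouse 3. Leaving out 1 mouse gave 0 to 3 rises in the glycogen list (0 without treated mouse 1, 3 without treated mouse 2) and 1 to 3 in the insulin and glucose list (3 without vehicle mouse 3 or treated mouse 1).

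Genes of the glucocorticoid response rose in 4 of 17 tested (Ddit4, Tat, Zbtb16 and Per1) and fell in 0, against 3.07% of all genes rising, with a median log2 change of 0.25. Zbtb16, a zinc finger repressor, was at 4.23, 5.52 and 7.29 FPKM in the vehicle mice and 6.68, 10.9 and 10.8 FPKM in the treated mice, and Per1, a period gene that also answers to glucocorticoids, was at 9.91, 8.05 and 15.9 FPKM in the vehicle mice and 16.2, 15.4 and 17.3 FPKM in the treated mice. Both overlapped between groups, with a log2 change of 0.64 (SE 0.23) and a log2 change of 0.54 (SE 0.22). Per1 kept its call when vehicle mouse 3 was left out and lost it without any other mouse (without vehicle mouse 2, 0.35), and Zbtb16 without vehicle mouse 1 (0.48), vehicle mouse 2 (0.64), treated mouse 2 (0.54) or treated mouse 3 (0.54). The list had 7 rises and 1 fall without vehicle mouse 3, 1 rise (Ddit4) without treated mouse 3, 2 rises without vehicle mouse 1, vehicle mouse 2 or treated mouse 2, and a median of -0.41 at ZT0. Its median at ZT12 ran from 0.16 without vehicle mouse 2 to 0.72 without vehicle mouse 3. Among 18 clock genes, Per1 and Bhlhe40 rose and 0 fell, against 3.07% of all genes rising. The clock list had 4 rises under median-ratio scaling, 3 rises and 1 fall without vehicle mouse 3 or treated mouse 1, and 1 rise without vehicle mouse 2, treated mouse 2 or treated mouse 3. Bhlhe40, a repressor of the clock and of feeding-responsive genes, was at 42.2, 48.1 and 50.6 FPKM in the vehicle mice and 73.6, 57.7 and 64.7 FPKM in the treated mice, without overlap, with a log2 change of 0.46 (SE 0.11). Clock was at 1.82, 2.06 and 2.35 FPKM in the vehicle mice and 1.49, 1.89 and 1.84 FPKM in the treated mice, with overlap and a log2 change of -0.17 (SE 0.10, not called).

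Acute-phase genes fell in 5 of 21 tested (Cp, Fga, Fgg, Fgb and Serpina3n), while Orm3 alone rose, against 3.67% of all genes falling, and the median log2 change was -0.37. Under median-ratio scaling 3 fell. Fga, the alpha chain of fibrinogen, was at 1194, 1385 and 1341 FPKM in the vehicle mice and 1126, 1057 and 1033 FPKM in the treated mice, with a log2 change of -0.28 (SE 0.09). Fgg, the gamma chain, was at 2190.0, 2238 and 2448 FPKM in the vehicle mice and 2062, 1819.8 and 1765 FPKM in the treated mice, with a log2 change of -0.29 (SE 0.10), and Fgb, the beta chain, at 2494, 2678 and 3036 FPKM in the vehicle mice and 2423, 2271 and 2139 FPKM in the treated mice, with a log2 change of -0.26 (SE 0.10). All 3 chains were lower in every treated mouse than in any vehicle mouse. Cp, ceruloplasmin, was at 220.2, 228 and 241 FPKM in the vehicle mice and 203, 187 and 189.7 FPKM in the treated mice, with a log2 change of -0.25 (SE 0.07). Serpina3n, a protease inhibitor, was at 297, 352 and 609.9 FPKM in the vehicle mice and 276, 272 and 243 FPKM in the treated mice, with a log2 change of -0.60 (SE 0.25). It too was without overlap. The most inducible genes, in contrast, spread by mouse rather than by group. Saa1 was at 1116, 5588 and 9336 FPKM in the vehicle mice and 2459.8, 9887 and 942 FPKM in the treated mice, and Lcn2 at 33.8, 239 and 407 FPKM in the vehicle mice and 63.3, 139 and 22.6 FPKM in the treated mice, and neither passed the test. Vehicle mice 2 and 3 and treated mouse 2 were the 3 highest for both.

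The list therefore depended on the mice. It had 14 falls without vehicle mouse 1, 4 without treated mouse 1, 3 without vehicle mouse 3 or treated mouse 2, 2 without vehicle mouse 2 and 1 without treated mouse 3, and Orm3 rose each time. The list median ran from -0.19 without vehicle mouse 3 to -0.62 without vehicle mouse 1. Only Cp among the 5 kept its fall in all of these. Fga was lost without vehicle mouse 2 (-0.24) or treated mouse 3 (-0.26), Fgg without vehicle mouse 3 (-0.24), treated mouse 2 (-0.26) or treated mouse 3 (-0.24), and Fgb without vehicle mouse 2 (-0.27), vehicle mouse 3 (-0.18), treated mouse 2 (-0.26) or treated mouse 3 (-0.22). Serpina3n kept its call only without vehicle mouse 1 or vehicle mouse 3, and without the latter its log2 change was -0.30. At ZT0, in other mice, 16 of the 21 fell and 0 rose, with a median of -0.71. There Fga, Fgb, Fgg and Serpina3n fell (log2 changes of -0.52, -0.33, -0.52 and -0.88), Cp did not pass (-0.03) and Orm3 was lower without a call (-0.76).

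Promoters of Fga, Fgb and Orm3 are shown since the fibrinogen genes and Orm3 moved in opposite directions within this class, whose members are commonly bound by C/EBP factors and STAT3. The windows are the 250 bases before the RefSeq start, with TTGCNNAA (a C/EBP type of motif, reverse TTNNGCAA) and TTCNNNGAA (a STAT type, its own reverse) in capitals. They lie at chr3:83025903-83026152 (plus strand), chr3:83049864-83050113 (minus strand) and chr4:63355908-63356157 (plus strand).
Fga: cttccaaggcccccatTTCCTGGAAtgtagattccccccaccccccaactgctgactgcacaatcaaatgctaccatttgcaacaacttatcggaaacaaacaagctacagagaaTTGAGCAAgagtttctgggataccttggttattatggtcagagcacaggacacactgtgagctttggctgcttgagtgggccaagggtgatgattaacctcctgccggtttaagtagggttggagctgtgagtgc
Fgb: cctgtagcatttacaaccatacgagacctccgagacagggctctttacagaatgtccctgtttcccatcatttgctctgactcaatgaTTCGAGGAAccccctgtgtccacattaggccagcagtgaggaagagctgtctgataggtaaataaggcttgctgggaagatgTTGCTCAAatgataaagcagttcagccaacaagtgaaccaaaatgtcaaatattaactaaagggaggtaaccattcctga
Orm3: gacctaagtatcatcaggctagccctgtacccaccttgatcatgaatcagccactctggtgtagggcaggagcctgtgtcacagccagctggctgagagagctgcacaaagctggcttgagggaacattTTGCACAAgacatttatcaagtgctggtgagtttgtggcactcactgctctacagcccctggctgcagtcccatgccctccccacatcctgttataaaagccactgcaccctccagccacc
Fga and Fgb hold 1 match of each motif, at -135 and -234 in Fga and at -80 and -162 in Fgb, and Orm3 holds 1 match of the former at -121. The first motif is present in 9.56% and the second in 7.02% of the 32851 windows.

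The ZT0 mice let each of the 661 calls be read in animals that were not used to make it. Of the 661, 406 (61.4%) had the same sign at ZT0, against 55.1% of all genes tested, and 51 passed p under 0.05 in the same direction and 23 in the opposite direction. Together 11.2% passed at ZT0, against 9.23% of all genes tested. Igfbp2, an insulin-like growth factor binding protein of the liver, was at 392, 288 and 389 FPKM in the vehicle mice and 669, 435 and 557 FPKM in the treated mice at ZT12. It rose without overlap, with a log2 change of 0.63 (SE 0.19), and at ZT0 by 1.04 on the log2 scale. Slc39a4, the zinc importer ZIP4, had the smallest p of all genes in limma at ZT12 and was chosen after its values were seen. It was at 12, 10.7 and 11.4 FPKM in the vehicle mice and 20.5, 17.9 and 21.1 FPKM in the treated mice, without overlap, and rose by 0.75 at ZT12 and 0.49 at ZT0, both called.

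Other genes with the same call at both times included Lrg1, a secreted leucine-rich glycoprotein, at 1304, 1545 and 2003 FPKM in the vehicle mice and 948, 1120.3 and 869 FPKM in the treated mice at ZT12 (-0.71 at ZT12 and -1.16 at ZT0), and Cpne8 (-1.08 and -0.55). Lipc, hepatic lipase, and Serpina10, an inhibitor of clotting factor X, both named after their values were seen, changed by 0.41 and -0.42 at ZT12 and by 0.33 and -0.53 at ZT0. Lipc was at 73, 74.6 and 68.9 FPKM in the vehicle mice and 105, 82.8 and 102 FPKM in the treated mice at ZT12, and Serpina10 at 189, 184 and 229 FPKM in the vehicle mice and 141, 157 and 148 FPKM in the treated mice. Neither overlapped between the ZT12 groups. The genes of opposite calls included Tat (0.96 at ZT12, -0.64 at ZT0), Cyp2c67, a cytochrome P450 (-0.43 and 1.06), and Sox9 (0.23 and -0.59). The interaction of treatment and time passed an unadjusted limma p of 0.05 in 650 genes (6.63%), and 0 passed after adjustment (lowest adjusted p in limma 0.337).

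**Figure D3:**
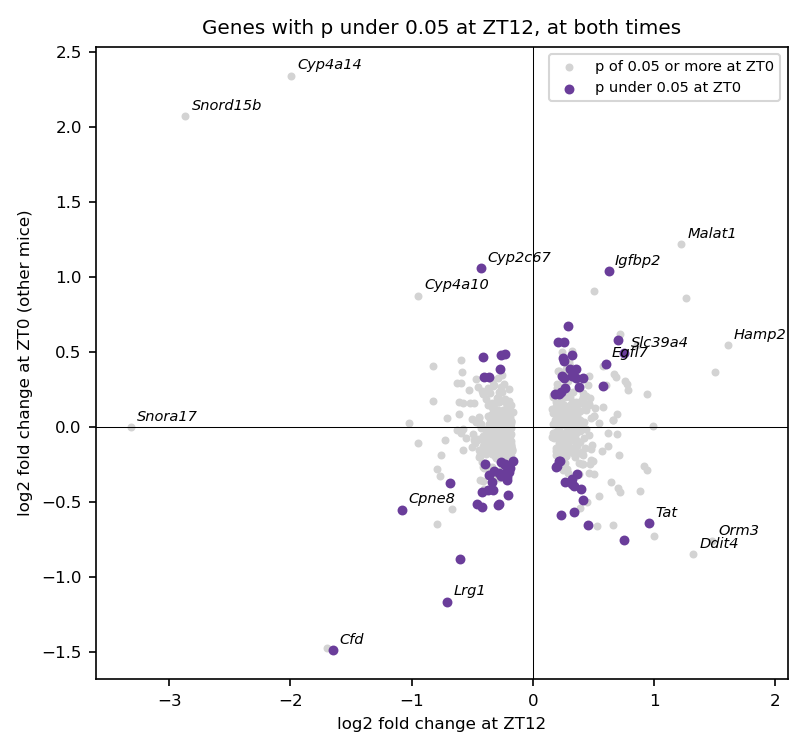
Log2 change at ZT12 (horizontal) against that at ZT0 in other mice (vertical) for the 661 genes with a limma p under 0.05 at ZT12, in purple where ZT0 also passed and grey where it did not. Igfbp2, Slc39a4, Cpne8, Lrg1 and Cfd are purple and on the same side at both times, Tat and Cyp2c67 are purple on opposite sides, and Cyp4a14 and Cyp4a10 lie below 0 at ZT12 and above 0 at ZT0. Snora17 and Snord15b, at the left, are small RNAs whose values are uncertain in mRNA libraries.

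Across the other lists few members were called, except among antioxidant genes. Cholesterol synthesis had 0 calls of 23 tested and a median of -0.08 (without treated mouse 3, 4 rises, and without treated mouse 2, 2 falls). The respiratory chain had 5 rises of 75 tested (Uqcrb, Cox5a, Ndufs5, Ndufa12 and Ndufb10), each under 0.30 on the log2 scale, against 3.07% of all genes rising, with 65 above 0 (55 under quantile normalization). The rises were 9 under median-ratio scaling and 2 under quantile normalization. They were 1 without vehicle mouse 2 or vehicle mouse 3, 2 without treated mouse 3, 3 without treated mouse 1 and 8 without treated mouse 2. Antioxidant and glutathione genes split, with Gstm6 and Gstm1 up and Srxn1, Gclm and Gclc down among 22. These were 22.7% of that list, against 6.74% of all genes called (3.07% higher and 3.67% lower). Gclm, a subunit of the enzyme that begins glutathione synthesis, was at 78.1, 78.9 and 82.6 FPKM in the vehicle mice and 61.1, 67.6 and 72.9 FPKM in the treated mice, without overlap, with a log2 change of -0.25 (SE 0.08), a call lost without vehicle mouse 3 (-0.23) or treated mouse 1 (-0.18). Without treated mouse 1 the log2 change of Gstm1 was 0.14 against 0.24, and Gstm1, Gclc (-0.23), Bst2 and Rps25 each lost their call in 3 or more of the 6 fits that leave out 1 mouse. Bile acid genes had 1 rise of 19 (Cyp27a1, 0.35, a sterol hydroxylase, 0.21 and no longer a call without vehicle mouse 1, nor called without vehicle mouse 3, treated mouse 1 or treated mouse 3). The bile acid list had 3 falls and 0 rises without treated mouse 3, 1 fall and 0 rises without vehicle mouse 1, and 3 rises without treated mouse 2. The Cyp2 list had 2 falls of 26 (Cyp2a22 and Cyp2c67), interferon genes 1 rise of 26 (Bst2), and ribosomal protein genes 1 rise (Rps29, 0.35 without vehicle mouse 1 against 0.53) and 1 fall (Rps25) of 69. Called members were 5.26% of the bile acid list and 7.69% of the Cyp2 list, against 6.74% of all genes. They were 3.85% of the interferon list and 2.9% of the ribosomal protein list. ER chaperone genes had 0 calls of 18 (4 falls without treated mouse 3), and heat shock genes 0 of 12 (6 rises without treated mouse 1). There were likewise 0 calls for ATF4 targets (11), sex-biased genes (13), immediate early genes (10) and the proteasome (36). Leaving out 1 mouse gave 0 to 2 rises and 2 to 3 falls in the Cyp2 list (2 rises without vehicle mouse 1), 0 to 3 and 0 to 2 in the interferon list (3 rises without vehicle mouse 1, 2 falls without treated mouse 2), 1 to 4 and 0 to 4 among ribosomal proteins (4 rises without vehicle mouse 1, 4 falls without treated mouse 1), 1 to 3 and 1 to 3 in the antioxidant list, and 0 to 2 calls in each of the last 4 lists.

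**Figure D4:**
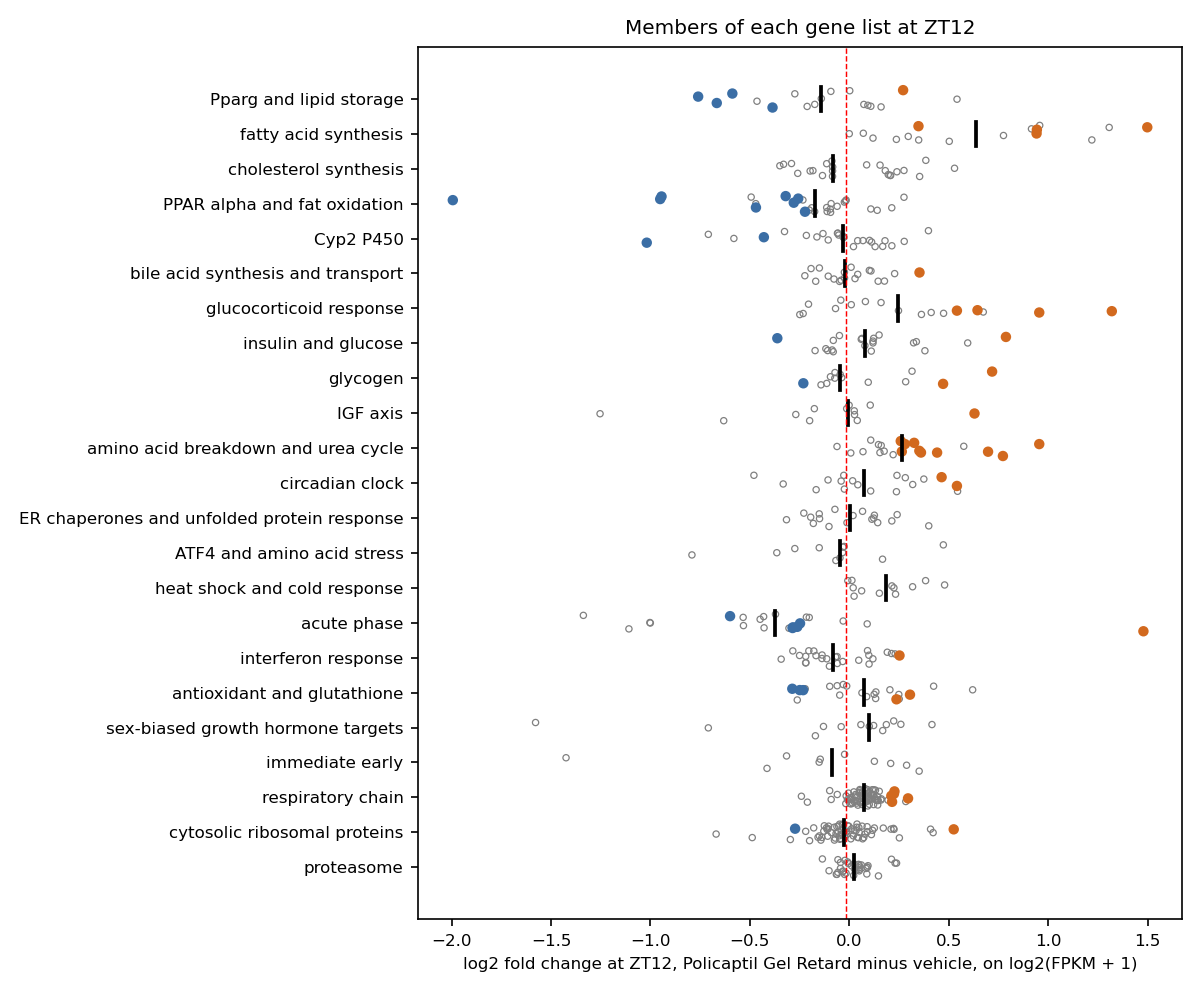
Log2 change at ZT12 of every tested member of 23 gene lists, with orange for genes that rose and blue for genes that fell at a limma p under 0.05, open grey circles for the rest, a black bar at each list's median and a red dashed line at the median of all genes. The bars of fatty acid synthesis (0.64) and acute phase (-0.37) lie farthest from the line.

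Markers of other cell types showed where RNA of the non-hepatocyte fraction moved. In bulk liver, fewer cells of a type and less RNA per cell cannot be told apart. Egfl7, an endothelial secreted factor, was at 6.32, 8.45 and 6.92 FPKM in the vehicle mice and 11.7, 11 and 11.6 FPKM in the treated mice, without overlap, with a log2 change of 0.60 (SE 0.11), and it rose at ZT0 too (0.42). Stab1, the scavenger receptor of sinusoids, was at 2.4, 2.96 and 1.83 FPKM in the vehicle mice and 3.41, 3.29 and 3.41 FPKM in the treated mice, with a log2 change of 0.38 (SE 0.13), a call lost without vehicle mouse 3 (0.25), treated mouse 1 (0.37) or treated mouse 3 (0.37). The endothelial list had 2 rises, against 3.07% of all genes rising, with 4 without vehicle mouse 1 and 1 to 2 without each of the others. All 9 endothelial markers tested had a log2 change above 0, against 45.6% of all genes. The 12 listed summed to 31.2 to 41.9 FPKM in vehicle and 45.8 to 49.3 FPKM in treated mice. The endothelial regulator Sox18, ranked just below the 12 highest changes and so without overlap by selection, was at 0.913, 1.75 and 0.809 FPKM in the vehicle mice and 3.44, 2.25 and 2.22 FPKM in the treated mice.

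Of only 4 MHC class II genes tested, H2-Eb1, H2-Ab1 and H2-Aa, which present peptides on antigen-presenting cells, rose (0.42, 0.38 and 0.50), against 3.07% of all genes. At ZT0 these genes changed by -0.19, -0.24 and -0.31 on the log2 scale, without a call. The call of H2-Aa was lost without vehicle mouse 2 (0.38), vehicle mouse 3 (0.44) or treated mouse 2 (0.43). H2-Eb1 was at 6.31, 5.09 and 5.44 FPKM in the vehicle mice and 8.24, 7.64 and 7.53 FPKM in the treated mice, without overlap. Macrophage markers had 0 calls of 10, and summed to 44.6 to 114 FPKM in vehicle and 54.1 to 84.7 FPKM in treated mice. Neutrophil markers had 0 calls of 2. Cd4, the only lymphocyte marker tested, rose (0.31), a call lost without vehicle mouse 2 (0.34), vehicle mouse 3 (0.24), treated mouse 1 (0.22) or treated mouse 2 (0.30). Bile duct markers were lower in sum (41.5 to 43.8 FPKM in vehicle, 26.4 to 38.5 FPKM in treated mice), and most of that sum was Spp1, osteopontin, at 38.1, 37.9 and 36.6 FPKM in the vehicle mice and 28.3, 33.9 and 23 FPKM in the treated mice. Spp1 fell with a log2 change of -0.41 (SE 0.13), and without treated mouse 3 by -0.27. Krt19, a bile duct keratin, was at 1.02, 2.72 and 1.97 FPKM in the vehicle mice and 0.559, 1.08 and 1.02 FPKM in the treated mice, with overlap, and kept its call only while all 6 mice were in the fit or vehicle mouse 1 was out (without vehicle mouse 2, -0.39). Sox9, a bile duct transcription factor, rose, at 0.821, 0.642 and 0.838 FPKM in the vehicle mice and 1.25, 1.08 and 0.905 FPKM in the treated mice. The 3 called markers of 4 tested, against 6.74% of all genes called, thus moved both ways. Sox9 kept its call when treated mouse 3 was left out and lost it without any other mouse (without vehicle mouse 2, 0.18). The part of these cell types in the results above was not tested. Lgals1, galectin-1, found in many non-hepatocyte cells and named after its values were seen, was at 54.2, 52.4 and 50.6 FPKM in the vehicle mice and 39, 37.8 and 37.7 FPKM in the treated mice, without overlap, with a log2 change of -0.45 (SE 0.06). Des, desmin, a marker of stellate cells, rose at both times (0.36 and 0.39). It was the only call among 10 stellate markers tested, against 6.74% of all genes called. Of the 10, 3 had a log2 change above 0 and 7 below, with a median of -0.04.

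**Figure D5:**
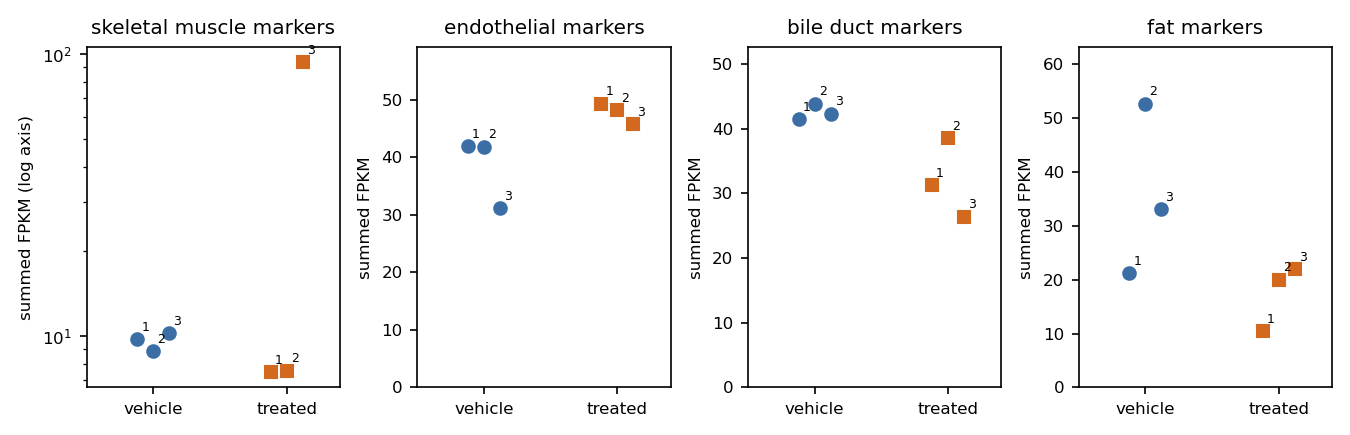
Summed FPKM of skeletal muscle (log axis), endothelial, bile duct and fat markers in each ZT12 mouse, with circles for vehicle, squares for treated mice and the mouse number beside each. Treated mouse 3 holds 93.5 FPKM of muscle markers against at most 10.3 FPKM elsewhere, and the endothelial and bile duct sums do not overlap between groups.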

How the data were processed

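Liver RNA of 12 mice was sequenced by the authors, and groups of 3 were taken from the labels. The deposited table holds 1 FPKM value per gene and library, which the methods call RPKM. The methods describe single-end reads aligned with ELAND to mm10 and splice junctions, keeping unique alignments, while the submitters' processing notes name TopHat and Cuffnorm. Read totals were not used here, so each value's counting error is unknown, and relative depth was estimated from the steps between low values. With no counts, genes listed at 0 (such as Alb) may be failed estimates, low genes are less precise, and small RNAs are uncertain in mRNA libraries. Where a symbol was listed more than once (289 of 24138 lines), its line of higher mean was used, which left 23849 symbols.

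Values were analysed as log2(FPKM + 1), a scale that understates changes of low genes, for the 9806 symbols that averaged 1 FPKM or more across the 12 mice. Limma 3.58.1 in R 4.3.3 (lmFit, eBayes with trend, two-sided) was fitted on the 6 ZT12 mice, the 6 ZT0 mice, and all 12 for the interaction, with Benjamini-Hochberg adjustment over all genes. P-values set the group difference against the spread between these mice, with each gene's variance moderated over all genes. The script was tested on simulated data. The members and gene lists were chosen with earlier results of these data known. Genes named in the text are the 12 highest and 12 lowest log2 changes among calls without overlap that also held without treated mouse 3, the genes the study discusses, up to 6 called members of each list and its best-known members, and genes said to be chosen later, and 3 genes that the rule names are not reported here. Promoters and coordinates are from RefSeq and GENCODE of the same build. Alternatives were other scalings, FPKM minimums, pseudocounts and tests, a replicate block and leaving out each mouse. Figures were drawn with matplotlib 3.10.9 in Python 3.11.15.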

Additional observations from a re-analysis of the deposited data

Results flagged for a closer look

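Of the named genes, 27 had a treatment change that differed between ZT12 and ZT0 by the interaction term of limma at an unadjusted p under 0.05, and 0 of them passed after adjustment (lowest adjusted p in limma 0.337). These were 28.4% of the 95 named genes, most of which were named because they were called at ZT12, and 26.3% of all 661 genes called at ZT12 did so, against 6.63% of all genes tested. The ZT12 difference that made these calls also enters the interaction. A higher share among them was therefore built in and does not measure how far the changes depend on time. The values in parentheses are the change at ZT12 minus the change at ZT0 on the log2 scale.

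The difference was positive for the stress and glucocorticoid-responsive genes Ddit4 (2.17), Tat (1.60) and Per1 (0.999), and for the clock gene Bhlhe40 (0.77). The urea cycle and amino acid genes Sds (1.11), Arg1 (0.50), Asl (0.45) and Cps1 (0.37) had a positive difference too. So did the glycogen targeting subunits Ppp1r3c (1.15) and Ppp1r3b (0.72). It was also positive for Orm3 (2.24), H2-Bl (1.17), H2-Aa (0.81), Sox9 (0.82), Rps29 (1.19) and Saa1 (4.06). Saa1 fell at ZT0 (log2 change of -4.51) and was not called at ZT12 (-0.45).

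The difference was negative for the PPARα targets Cyp4a14 (-4.34), Cyp4a10 (-1.82), Vnn1 (-0.84) and Hadha (-0.29), for the cytochromes Cyp2c67 (-1.49) and Cyp2a22 (-1.05), for Pparg (-0.95), for the glutathione genes Gclm (-0.34) and Gclc (-0.42), and for Krt19 (-1.03) and 9130409I23Rik (-0.997). Cyp4a14 changed by -1.99 at ZT12 and 2.34 at ZT0, where the vehicle mice ranged from 2.77 to 166 FPKM.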

How the results depend on the processing

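Main counts at ZT12 were 301 higher, 360 lower and 0 after adjustment. Median-ratio and quantile scaling, a pseudocount of 0.1, a fit of all 12 mice and limma without the trend kept them within 1.5 times. With no FPKM minimum 510 were higher and 629 lower, and with a minimum of 5 FPKM 224 were lower, as more and fewer genes were tested. A Cyber-T style test gave 23 genes after adjustment, 15 higher and 8 lower, among them Orm3, Cyp4a10, Hamp2 and Cpne8. Why it passed more genes than limma was not tested. Leaving out 1 mouse gave 230 to 347 higher, 255 to 542 lower (542 without treated mouse 3) and 0 to 1 after adjustment (1 without vehicle mouse 3). In all 6 of these fits 180 calls (91 higher, 89 lower) were kept and 0 of the 661 turned. Of 85 named genes called, 43 lost the call without at least 1 mouse, 37 passed in every alternative that kept all mice and tested them, and 30 in every alternative. Calls repeated at ZT0 in the same direction were 51, with 81 under the Cyber-T style test and 31 to 67 without 1 mouse (31 without treated ZT0 mouse 3). Opposite calls were 23, with 42 without the minimum, 14 at 5 FPKM, 70 under the Cyber-T style test and 18 to 38 without 1 mouse (38 without vehicle ZT0 mouse 1, 35 without treated ZT12 mouse 1). The interaction gave 650 genes, with 1050 without the minimum, 422 at 5 FPKM, and 0 to 1 after adjustment without 1 mouse (1 without treated ZT0 mouse 1, vehicle ZT12 mouse 2 or vehicle ZT12 mouse 3). Saa1 ranged from -1.35 to 0.35 without 1 mouse, turning without vehicle mouse 3 (0.19) and without treated mouse 3 (0.35). With the replicate number as a replicate block, 306 genes were higher and 339 lower, and 39 calls were opposite at ZT0. No shared deviation of same-numbered mice was seen, as their deviations correlated at -0.00, -0.09 and -0.21 and 0 of 3 mice correlated best with their own number. With only 3 such values, whether the numbers paired mice cannot be decided.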
